A study of Homo sapiens with 6 samples.

Results

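The region described here is the stretch of human chromosome 5 that runs from the end of FGF18 across a wide intergenic interval and then through FBXW11, STK10, UBTD2 and SH3PXD2B, measured for its contacts with FGF18. Its members are the HindIII restriction fragments with a midpoint in hg19 chr5:170884628-171881527, a span of 996.9 kb that begins 32.2 kb above the viewpoint fragment, chr5:170851908-170853009. There were 231 such fragments, of 917 within 2 Mb of the viewpoint, 20398 on chromosome 5 and 206896 in all. The fragments had a median length of 2772 bases (3 to 24613 bases) and together covered 95.6% of the stretch. The stretch was divided by fragment midpoint into the intergenic stretch (84 fragments, 32 to 438 kb above the viewpoint), FBXW11 (43 fragments, 438 to 578 kb), STK10 (33 fragments, 618 to 768 kb), UBTD2 (25 fragments, 788 to 858 kb), SH3PXD2B (23 fragments, 908 to 1029 kb) and the 3 gaps between the genes (5, 3 and 15 fragments).

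The data were 4C-seq libraries of K562, a chronic myeloid leukaemia cell line, with a viewpoint at FGF18. The groups, with 2 libraries each, were DKO (silencer 1 and silencer 2 excised by CRISPR), S1KO (silencer 1 excised) and EV (empty vector). The labels say that cells of all 3 groups went through CRISPR excision and call the EV cells untreated. They give neither the positions of the silencers nor whether a line is 1 clone or a pool, and nothing in them says that replicates came from separate cultures, so every p-value measures only the spread between these libraries.

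A 4C-seq experiment ligates fragments that lie close together in the nucleus and sequences all partners of 1 chosen fragment, the viewpoint, so that the read count of a fragment reports how often it met the viewpoint. Such contacts fall steeply with distance along the chromosome, and silencers are elements that hold down the transcription of genes they contact. FGF18 encodes a secreted fibroblast growth factor. Of the neighbours, FBXW11 encodes an F-box protein that selects substrates for a ubiquitin ligase, STK10 a serine/threonine kinase, UBTD2 a protein with a ubiquitin-like domain, and SH3PXD2B an adaptor protein of podosomes, the actin structures with which cells degrade matrix. The RefSeq annotation also places SMIM23, 1 of 6 protein-coding genes in all, between FGF18 and FBXW11, and EFCAB9 between STK10 and UBTD2. Between FGF18 and FBXW11 it lists 9 lncRNA genes too, so the intergenic stretch is not free of genes.

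The promoters of 3 of the 4 genes are shown because they are the landmarks at the far, telomeric end of each gene body, all 3 genes being read from the minus strand towards FGF18. The sequences are from RefSeq on GRCh38.p14, from 250 bases before to 50 bases after the gene start, 5′ to 3′ on the minus strand, at chr5:172006589-172006888 (FBXW11), chr5:172283715-172284014 (UBTD2) and chr5:172454476-172454775 (SH3PXD2B). These positions are not in hg19 and cannot be set against the fragment positions. Capitals mark GATC, the site of the second enzyme, DpnII.
FBXW11: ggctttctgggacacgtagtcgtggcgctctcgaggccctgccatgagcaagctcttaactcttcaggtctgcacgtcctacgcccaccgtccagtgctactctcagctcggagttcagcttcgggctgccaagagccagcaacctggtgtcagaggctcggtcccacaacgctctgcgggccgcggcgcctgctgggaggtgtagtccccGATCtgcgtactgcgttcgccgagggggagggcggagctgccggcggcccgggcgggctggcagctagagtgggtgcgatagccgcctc
UBTD2: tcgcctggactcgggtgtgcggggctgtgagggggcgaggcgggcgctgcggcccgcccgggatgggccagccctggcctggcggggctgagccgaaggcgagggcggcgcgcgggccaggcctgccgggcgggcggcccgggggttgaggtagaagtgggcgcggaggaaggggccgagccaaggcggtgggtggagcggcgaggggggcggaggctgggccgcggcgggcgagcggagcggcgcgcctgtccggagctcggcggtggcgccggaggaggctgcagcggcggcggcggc
SH3PXD2B: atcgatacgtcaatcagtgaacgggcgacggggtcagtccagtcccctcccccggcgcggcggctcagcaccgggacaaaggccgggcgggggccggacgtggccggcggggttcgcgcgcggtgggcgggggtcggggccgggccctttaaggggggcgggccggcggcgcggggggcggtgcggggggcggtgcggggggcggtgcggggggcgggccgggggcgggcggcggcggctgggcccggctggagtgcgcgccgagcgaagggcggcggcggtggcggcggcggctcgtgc

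None of the 3 promoters holds the HindIII site AAGCTT, which 5.84% of 35116 RefSeq promoters of the same length hold on either strand. GATC occurs once in the FBXW11 promoter and in neither of the others, against 41.7% of all promoters with a match. The promoters were 67% (FBXW11), 82% (UBTD2) and 83% (SH3PXD2B) G and C, against a median of 58.7%. A match is a description of these letters only.

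The libraries differed in depth. All chromosomes together held 1765929 and 1300415 reads in DKO, 1270579 and 1238383 in S1KO, and 708503 and 1919737 in EV. Within 2 Mb, with fragments within 10 kb of the viewpoint left out, there were 241066 and 271861 reads in DKO, 131098 and 107152 in S1KO, and 68303 and 65464 in EV. The depth near the viewpoint thus followed the groups, whereas the depth over all chromosomes did not. These reads made up 55.8% and 58.0% of the chromosome 5 reads outside that zone in DKO, 48.0% and 45.1% in S1KO, and 45.8% and 31.8% in EV. All levels below are reads per 1000 of these reads within 2 Mb. Such shares sum to a fixed total, so a higher share in one place has to be met by lower shares elsewhere, and the part of depth in the differences was not tested.

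Over the whole stretch the share was slightly lower in DKO, at 491 and 484 reads per 1000 in DKO, 531 and 530 in S1KO, and 522 and 513 in EV. Where along the stretch these reads lay differed more. In DKO cells the intergenic stretch took more of the reads and all 4 gene bodies took less, with FBXW11 and STK10 at about 0.497 and 0.522 times their EV share. In S1KO cells the intergenic stretch stood between the other groups, and the gene bodies stood near EV.

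The intergenic stretch held 379 and 360 reads per 1000 in DKO, 324 and 321 in S1KO, and 294 and 296 in EV. No group overlapped another. Over 2 libraries each, the mean share was 369 ± 13.8 (SD) in DKO, against 322 ± 2.2 in S1KO and 295 ± 1.57 in EV. The DKO share exceeded that of EV by 0.32 on the log2 scale (SE 0.039), and the exact permutation test (two-sided) gave p = 0.333, the smallest that 2 libraries against 2 allow. Against the other 4 libraries together the exact p was 0.0667, again the smallest possible.

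FBXW11, the nearest of the 4 gene bodies, had the largest loss among them by these shares, though STK10 fell more in some other settings. FBXW11 held 43.1 and 46.4 reads per 1000 in DKO, 85.1 and 76.2 in S1KO, and 93.4 and 86.6 in EV. Both DKO libraries lay far below the other 4, and both S1KO libraries lay just below both EV libraries. The log2 difference was −1.01 (SE 0.077) for DKO against EV, −0.16 (SE 0.097) for S1KO against EV and −0.85 (SE 0.097) for DKO against S1KO.

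STK10 followed FBXW11 closely. It held 25.2 and 32.1 reads per 1000 in DKO, 53.5 and 53.0 in S1KO, and 58.4 and 51.4 in EV. DKO lay below the other groups, whereas S1KO fell inside the range of EV. The log2 difference from EV was −0.95 (SE 0.198) in DKO and −0.04 (SE 0.093) in S1KO.

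The 2 farther genes had fewer reads and a smaller difference. UBTD2 held 13.0 and 14.3 reads per 1000 in DKO, 20.9 and 25.2 in S1KO, and 24.6 and 19.9 in EV. SH3PXD2B held 11.3 and 12.7 reads per 1000 in DKO, 16.3 and 15.4 in S1KO, and 15.6 and 23.9 in EV. In both genes the DKO libraries were the lowest of the 6, while S1KO and EV overlapped. The log2 difference of DKO from EV was −0.70 (SE 0.170) in UBTD2 and −0.69 (SE 0.318) in SH3PXD2B, where the EV libraries were far apart. For SH3PXD2B it was −0.38 without EV replicate 2 and −0.995 without EV replicate 1.

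The gaps between the genes did as the genes around them. The gap between FBXW11 and STK10 held 8.36 and 7.46 reads per 1000 in DKO, 13.1 and 14.8 in S1KO, and 14.7 and 11.6 in EV. The gap between UBTD2 and SH3PXD2B held 8.55 and 7.04 in DKO, 13.2 and 16.3 in S1KO, and 14.9 and 12.9 in EV. In these 2 gaps both DKO libraries lay below the other 4. The short gap between STK10 and UBTD2 was the least certain, at 2.68 and 4.88 in DKO, 5.07 and 8.12 in S1KO, and 6.08 and 10.1 in EV. There too both DKO libraries lay below the other 4, but by little.

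**Figure D1:**
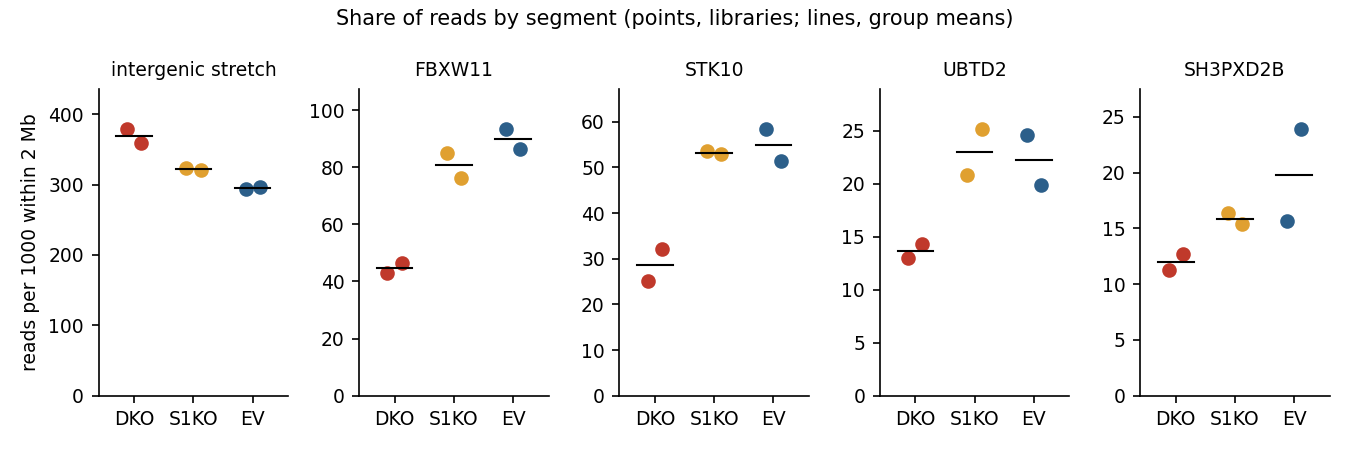
Reads per 1000 reads within 2 Mb (vertical axis, from 0, a scale for each panel) in the intergenic stretch and the 4 gene bodies, for the DKO, S1KO and EV libraries. Points are libraries and lines are group means; the DKO points are the highest in the intergenic stretch (379 and 360) and the lowest in every gene body.

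The same segments were tested with edgeR's quasi-likelihood test, in 1 fit with 50-kb windows for the rest of the 2 Mb on either side (69 features, adjusted by Benjamini-Hochberg over all of them). For DKO against EV, 3 of the 8 segments passed the threshold of 0.05, 1 higher and 2 lower, against 7.25% of all features (4.35% higher, 2.9% lower). The intergenic stretch rose by a log2 fold change of 0.32 (SE 0.071, adjusted p = 0.000216), FBXW11 fell by 1.01 (SE 0.162, adjusted p = 1.91e-07) and STK10 fell by 0.94 (SE 0.207, adjusted p = 0.000216). UBTD2, at −0.70 (adjusted p = 0.107), and SH3PXD2B, at −0.72 (adjusted p = 0.112), did not pass, nor did the gaps. With TMM scaling no segment passed by this test (adjusted p of 0.281 for the intergenic stretch, 0.151 for FBXW11 and 0.155 for STK10), and with chromosome 5 reads as library size the intergenic stretch alone passed. DESeq2 called FBXW11 and STK10 but not the intergenic stretch (adjusted p = 0.0649). The edgeR call of the intergenic stretch was also lost without EV replicate 1 (log2 0.32, adjusted p = 0.108) and without EV replicate 2 (log2 0.33, adjusted p = 0.194), while those of FBXW11 and STK10 held without each DKO and EV library.

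The gain in the intergenic stretch was lost when the fragments with most reads were capped, whereas the gene bodies stayed lower in DKO. A cap limits any gain in the fragments that reach it. It therefore cannot tell a gain carried by few such fragments from one shared by many. When the reads of each fragment were capped at the 90th percentile of its library, the DKO to EV difference turned to −0.17 in the intergenic stretch and stayed at −0.51 in FBXW11, −0.52 in STK10, −0.42 in UBTD2 and −0.41 in SH3PXD2B, with FBXW11 and STK10 still past the threshold. By the number of fragments with a read, as a share of those within 2 Mb, it was −0.32 in the intergenic stretch and −0.25 in FBXW11. It was −0.34 in STK10, 0.08 in UBTD2 and −0.14 in SH3PXD2B. Of the 84 intergenic fragments, however, 81 and 83 had a read in DKO, and 80 and 74 in EV. That count was near its ceiling, so it cannot show whether reads shifted. With all chromosome 5 reads as the denominator, the intergenic difference was 0.90 and that of FBXW11 −0.43. It was then −0.37 in STK10 but only −0.12 in UBTD2 and −0.11 in SH3PXD2B.

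Between S1KO and EV none of the 8 segments, and 0% of all features, passed edgeR's quasi-likelihood test, nor did any segment have an unadjusted p under 0.05. The intergenic stretch came closest, with a log2 fold change of 0.13 (SE 0.071, adjusted p = 0.650). Fitted on the S1KO and EV libraries alone, it did pass (adjusted p = 0.0298). For DKO against S1KO, FBXW11 fell by 0.85 (SE 0.162, adjusted p = 2.52e-05) and STK10 fell by 0.90 (SE 0.206, adjusted p = 0.000778), 2 of 8 segments against 4.35% of all features (1.45% higher, 2.9% lower). The intergenic stretch, at 0.20 (SE 0.071, adjusted p = 0.0718), did not pass. Leaving out DKO replicate 1 or DKO replicate 2 brought it past the threshold, and leaving out DKO replicate 1 ended the call of STK10 (adjusted p = 0.0642). TMM, chromosome 5 scaling and capped reads each left no call in this comparison.

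Within a library, the ratio of intergenic to gene-body reads does not depend on how libraries are scaled. For each read in FBXW11 the intergenic stretch held 8.80 and 7.74 reads in DKO, 3.81 and 4.21 in S1KO, and 3.15 and 3.42 in EV. The 3 groups stood apart in the order DKO, S1KO, EV. For each read in STK10 it held 15.1 and 11.2 in DKO, 6.05 and 6.06 in S1KO, and 5.04 and 5.77 in EV, in the same order. For UBTD2 the ratios were 29.2 and 25.1 in DKO, 15.5 and 12.7 in S1KO, and 11.9 and 14.9 in EV, where S1KO and EV overlapped. For SH3PXD2B they were 33.5 and 28.2 in DKO, 19.8 and 20.8 in S1KO, and 18.8 and 12.4 in EV, with no overlap between groups.

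Taking the 4 gene bodies together, the intergenic stretch held 4.09 and 3.41 reads per gene-body read in DKO, 1.84 and 1.89 in S1KO, and 1.53 and 1.63 in EV. The log2 difference was 1.24 (SE 0.140) for DKO against EV, 0.24 (SE 0.049) for S1KO against EV and 1.00 (SE 0.134) for DKO against S1KO. The exact permutation p (two-sided) was 0.333 in each, and 0.0667 for DKO against the other 4. With capped reads the DKO to EV differences for single genes shrank to between 0.24 and 0.35, and by fragments with a read they lay between −0.41 and 0.02. The count of fragments was near its ceiling in the intergenic stretch and cannot show whether reads shifted there. In UBTD2 the count varied more: of 25 fragments, 21 and 24 had a read in DKO, and 21 and 12 in EV.

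**Figure D2:**
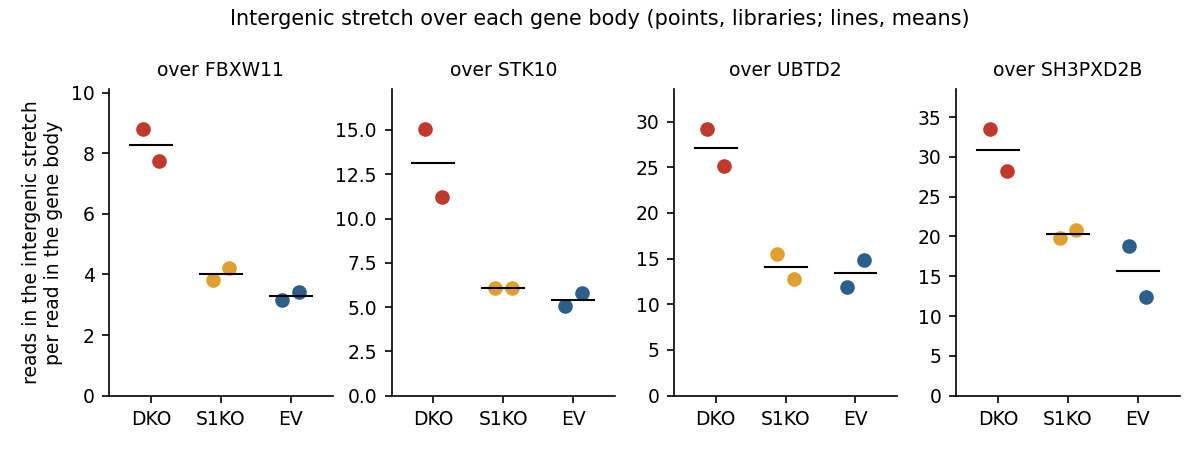
Reads in the intergenic stretch per read in each gene body (vertical axis, from 0, a scale for each panel) for the DKO, S1KO and EV libraries. Points are libraries and lines are means; over FBXW11 the DKO libraries reach 8.80 and 7.74, against at most 4.21 in S1KO and 3.42 in EV.

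The crossing from gain to loss lay inside the intergenic stretch, well before FBXW11. The switch point was taken as the place where the running 50-kb share of the first group, until then above that of the second, fell below it and stayed below for 100 kb. For DKO against EV it lay 191 kb above the viewpoint, at hg19 position 171043627, 246 kb short of the FBXW11 limit. The 4 pairs of 1 DKO and 1 EV library placed it between 188 and 249 kb. There was 1 change of sign along the whole stretch, and the running share was lower in DKO at 84.1% of positions.

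For DKO against S1KO the switch point fell at nearly the same place, 189 kb above the viewpoint (position 171041627), with library pairs between 183 and 190 kb and again 1 change of sign. These comparisons share the DKO libraries. S1KO against EV had no switch point by group means: 3 of the 4 library pairs gave one, scattered between 291 and 899 kb, the sign changed 36 times, and S1KO was lower at 51.3% of positions. Other settings moved the DKO to EV switch point to between 163 kb (capped reads) and 321 kb (fragments with a read). With chromosome 5 reads as the denominator it was 284 kb. For DKO against S1KO it lay between 167 and 381 kb, the last with a 25-kb running window. In every setting run, both switch points lay before FBXW11.

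**Figure D3:**
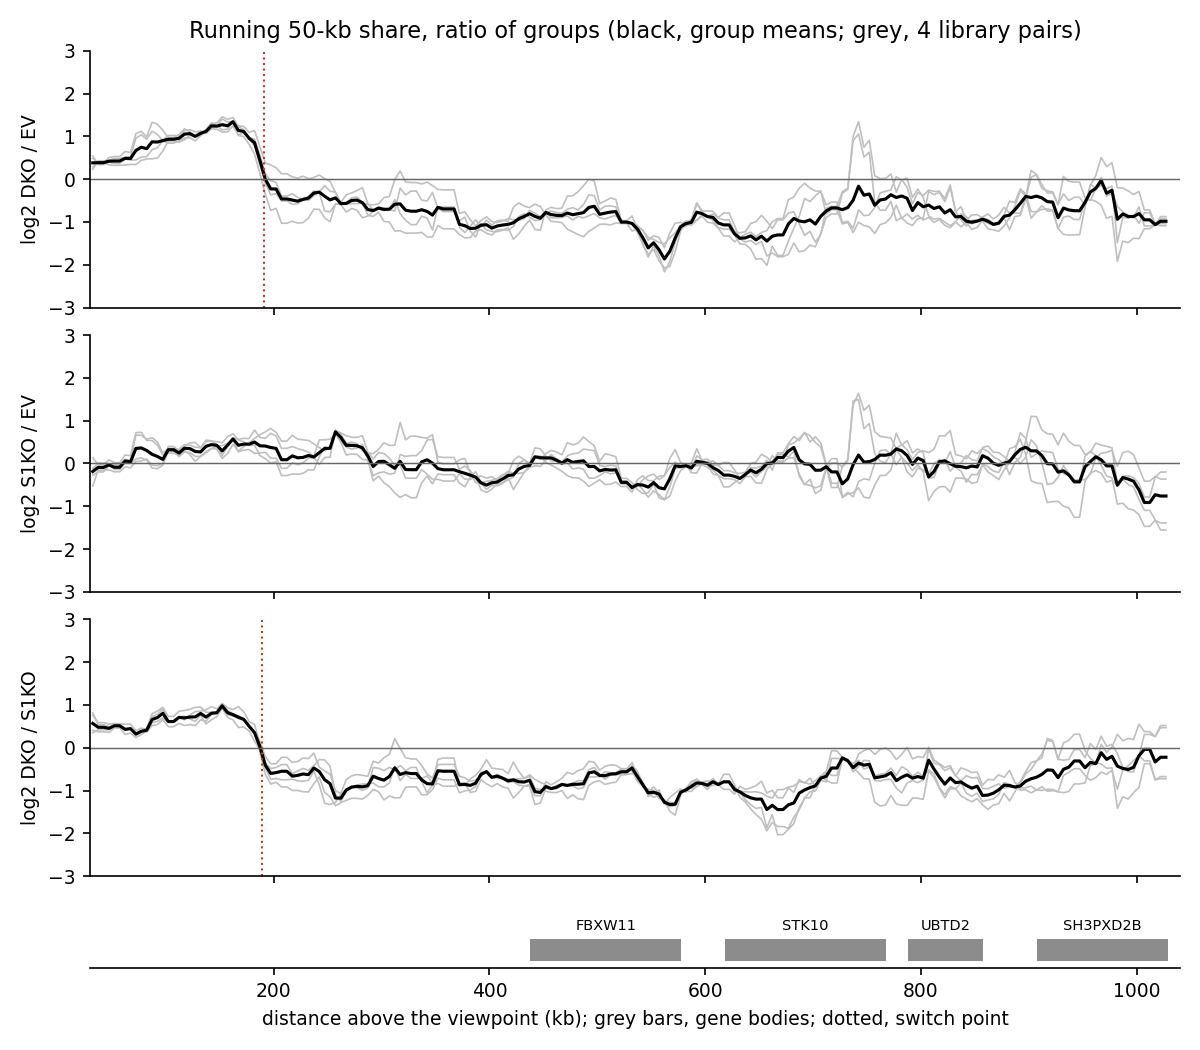
Log2 ratio of running 50-kb shares (vertical axes) against distance above the viewpoint in kb, for DKO over EV, S1KO over EV and DKO over S1KO. Black lines are ratios of group means, grey lines the 4 library pairs, and dotted lines the switch points at 191 kb (DKO over EV) and 189 kb (DKO over S1KO); gene bodies are the grey bars beneath.

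Divided at the DKO to EV switch point, the intergenic stretch fell into a near part of 34 fragments over 159 kb and a far part of 50 fragments over 246 kb. Because the dividing point was set by these shares, the values are a description. The near part held 284 and 284 reads per 1000 in DKO, 174 and 187 in S1KO, and 165 and 154 in EV. The far part held 95.2 and 75.2 in DKO, 150 and 134 in S1KO, and 130 and 142 in EV. S1KO was thus above both EV libraries in the near part and overlapped them in the far part, whereas DKO was well above in the near part and well below in the far part. With capped reads the near part held 149 and 125 in DKO, 130 and 141 in S1KO, and 128 and 154 in EV, so that the groups overlapped. The far part, capped, held 134 and 107 in DKO, 149 and 152 in S1KO, and 137 and 158 in EV.

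The 50-kb windows of the stretch gave the same picture at finer scale. Of 20 windows, 11 passed edgeR's quasi-likelihood test for DKO against EV (80 windows within 2 Mb tested, of which 17.5% passed), 3 of them higher (7.5% of the 80) and 8 lower (10%). The 3 higher windows adjoined each other, at 50 to 200 kb above the viewpoint. The window from 100 kb held 79.7 and 84.3 reads per 1000 in DKO, 43.4 and 53.5 in S1KO, and 38.0 and 41.1 in EV, a log2 fold change of 1.05 from EV in DKO (SE 0.207, adjusted p = 0.000157). The window from 150 kb held 91.6 and 83.4 in DKO, 58.3 and 61.7 in S1KO, and 40.5 and 46.4 in EV (log2 1.01, SE 0.202, adjusted p = 0.000157). In this window the groups were in the order DKO, S1KO, EV without overlap. The window from 50 kb held 57.1 and 61.4 in DKO, 48.4 and 46.6 in S1KO, and 45.1 and 29.4 in EV (log2 0.67, adjusted p = 0.0179). This call was the least firm of the 3: it was lost with TMM (adjusted p = 0.0632), without DKO replicate 1 (0.128), without DKO replicate 2 (0.198) and without EV replicate 2 (log2 0.40, adjusted p = 0.234), and the log2 value was 1.01 without EV replicate 1.

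None of these 3 gains passed with capped reads: the log2 values were then −0.06, 0.17 and −0.10 for the windows from 50, 100 and 150 kb. Past the switch point, the window from 200 kb held 35.5 and 25.7 in DKO, 49.7 and 43.3 in S1KO, and 35.1 and 48.8 in EV. It did not pass (log2 −0.45, adjusted p = 0.133), and DKO and EV overlapped.

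The 8 lower windows began at 350, 400, 450, 500, 550, 600, 650 and 850 kb, which takes in the end of the intergenic stretch, FBXW11, the nearer part of STK10 and, from 850 kb, the end of UBTD2 with most of the gap after it. The lowest ratio was in the window from 600 kb, at the near end of STK10, with 12.1 and 10.8 reads per 1000 in DKO, 21.9 and 23.0 in S1KO, and 29.9 and 25.4 in EV (log2 −1.27, SE 0.276, adjusted p = 0.000439). The window from 500 kb, inside FBXW11, held 16.9 and 17.0 in DKO, 26.1 and 23.9 in S1KO, and 34.7 and 33.3 in EV (log2 −1.0, SE 0.254, adjusted p = 0.00287). Here too the groups were ordered without overlap. The other 6 ranged in log2 fold change from −1.17 to −0.82. With capped reads the windows from 550, 600 and 650 kb still passed (log2 −0.73, −0.68 and −0.90), and with chromosome 5 reads as library size none of the 8 did. All 17 windows from 200 kb outward were lower in DKO than in EV by group mean.

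The median log2 fold change of the 20 windows was −0.78, against −0.21 over the 80 windows within 2 Mb. The median over all windows moved with the scaling, to −0.10 with TMM, 0.00 with DESeq2 and 0.30 with chromosome 5 reads. In the S1KO to EV comparison no window passed (0% of 80), with 1 of 20 at an unadjusted p under 0.05 by edgeR and by DESeq2, the window from 150 kb (log2 0.46, adjusted p = 0.576). Between DKO and S1KO, 9 windows passed, 1 higher and 8 lower, against 15% of the 80 (3.75% higher, 11.2% lower). The higher one was the window from 100 kb (log2 0.76, adjusted p = 0.00868). The largest difference was in the window from 650 kb in STK10, with 4.14 and 8.54 in DKO, 16.9 and 18.2 in S1KO, and 13.6 and 14.9 in EV (log2 −1.47 from S1KO in DKO, adjusted p = 0.00372). This count of 9 fell to between 0 and 5 when any 1 of the 4 libraries was left out, and the count of 11 fell to 4 and 5 without DKO replicate 1 and DKO replicate 2. Of the 11, 3 passed without each of the DKO and EV libraries, the windows from 100, 150 and 600 kb.

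**Figure D4:**
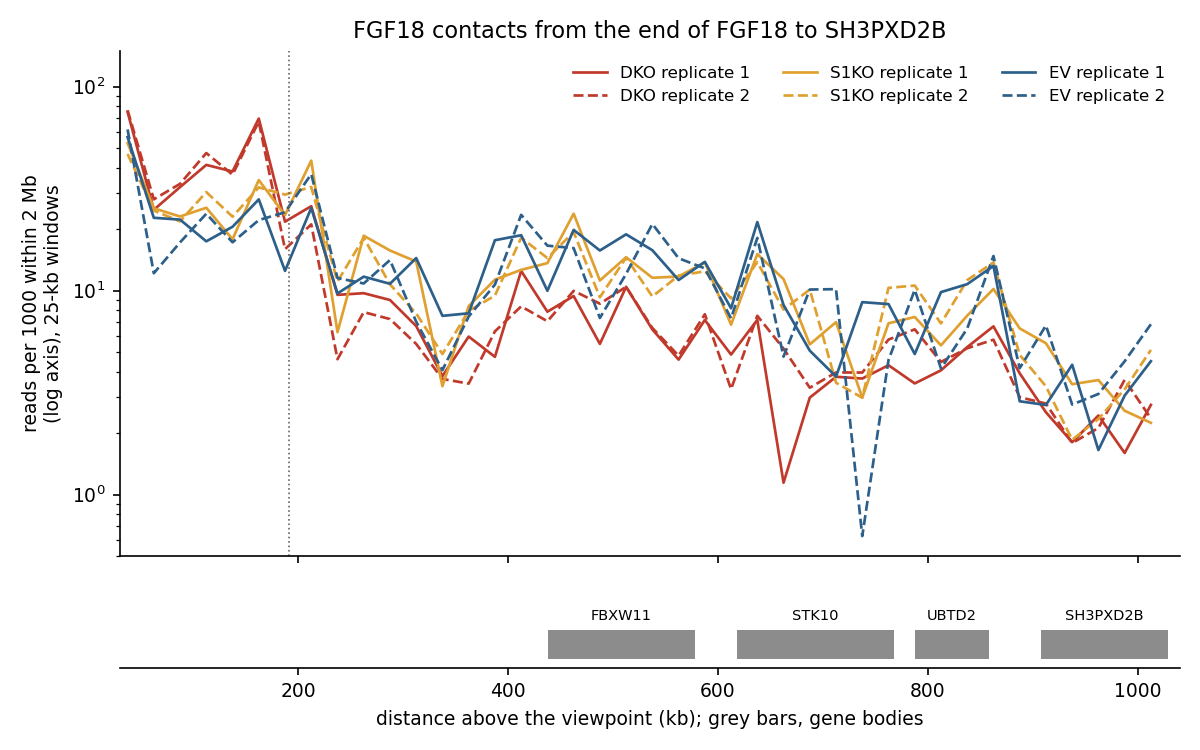
Reads per 1000 reads within 2 Mb in 25-kb windows (vertical log axis) against distance above the viewpoint in kb, a line for each DKO, S1KO and EV library. The dotted line marks 191 kb, the DKO to EV switch point; both DKO lines run highest between 75 and 175 kb, fall among the others in the next window, and beyond 350 kb they run mostly below the others.

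The shape of the whole profile shifted in DKO, and S1KO stood between DKO and EV. The median read of the stretch lay 165 and 161 kb above the viewpoint in DKO, 282 and 282 kb in S1KO, and 393 and 373 kb in EV. In DKO cells, therefore, most reads of the stretch fell before the switch point, and in EV the median read lay near the far end of the intergenic stretch. The slope of log2 share on log2 distance over the 20 windows was −1.12 and −1.02 in DKO, −0.80 and −0.74 in S1KO, and −0.61 and −0.55 in EV. The 3 groups did not overlap in either measure. With capped reads the medians overlapped, at 343 and 405 kb in DKO, 424 and 422 kb in S1KO, and 451 and 411 kb in EV, while the slopes were −0.66 and −0.51 in DKO, −0.49 and −0.50 in S1KO, and −0.38 and −0.48 in EV.

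**Figure D5:**
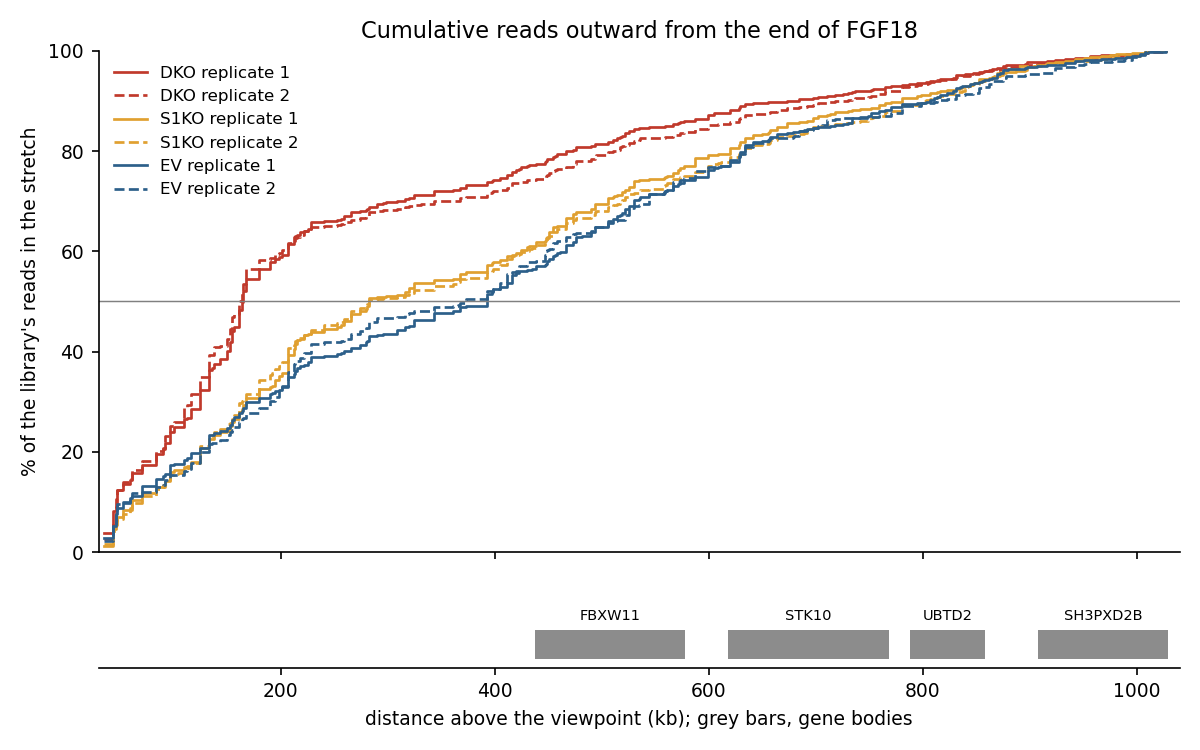
Cumulative percent of each library's reads in the stretch (vertical axis, 0 to 100) against distance above the viewpoint in kb, a stepped line for each DKO, S1KO and EV library. The lines cross 50% at 165 and 161 kb in DKO, 282 kb in both S1KO libraries, and 393 and 373 kb in EV.

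Set against the interval at the same distance on the other, centromeric side of the viewpoint, FBXW11 kept a smaller excess in DKO. It held 2.49 and 2.41 reads for each read in its mirrored interval in DKO, 6.85 and 7.43 in S1KO, and 10.8 and 11.4 in EV. Both sides contributed, since the mirrored interval (43 fragments) held 17.3 and 19.3 reads per 1000 in DKO, 12.4 and 10.3 in S1KO, and 8.68 and 7.58 in EV. With capped reads the log2 ratios were 1.31 and 1.18 in DKO, 2.42 and 2.81 in S1KO, and 3.14 and 3.24 in EV, again without overlap. For the intergenic stretch the ratio overlapped between groups, at 2.26 and 2.13 in DKO, 2.51 and 2.15 in S1KO, and 2.40 and 2.08 in EV. The mirrored interval of the intergenic stretch held 168 and 169 reads per 1000 in DKO, 129 and 149 in S1KO, and 122 and 143 in EV, so that DKO was highest on both sides of the viewpoint. In STK10 the ratio was 1.26 and 1.76 in DKO, 3.21 and 2.94 in S1KO, and 3.44 and 2.29 in EV. The mirrored STK10 shares overlapped between DKO and EV. In UBTD2 the DKO ratios, 1.73 and 1.41, overlapped those of S1KO, 1.72 and 3.73. In SH3PXD2B the ratio was 0.640 and 0.560 in DKO, 1.18 and 1.05 in S1KO, and 1.22 and 3.00 in EV. The mirrored SH3PXD2B share was highest in DKO.

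Along STK10 the reads were also distributed differently. Reads per base in the telomeric part over those in the centromeric part, divided at the middle of the gene, were 0.932 and 0.968 in DKO, 0.630 and 0.580 in S1KO, and 0.575 and 0.419 in EV. The DKO profile was thus nearly even along the gene, whereas in S1KO and EV the part nearer FGF18 held more reads per base. The same ratio in FBXW11 was 0.988 and 0.739 in DKO, 0.709 and 0.783 in S1KO, and 1.00 and 1.13 in EV, with DKO and S1KO overlapping and EV above both.

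Single fragments were less certain than segments. Of the 231 fragments, 165 had reads in all 6 libraries, 3 in 1 library only, and 222 passed the filter of at least 10 reads in at least 2 libraries. Fragments with a read numbered 206 and 226 in DKO, 224 and 217 in S1KO, and 216 and 176 in EV. Thinned to the lowest depth, 203 and 221 would be expected in DKO, 222 and 217 in S1KO, and 216 and 176 in EV, so EV replicate 2 stood lowest at equal depth too. Between replicates the Spearman correlation over the 231 fragments was 0.796 in DKO, 0.786 in S1KO and 0.655 in EV, as a description.

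In edgeR's quasi-likelihood test of single fragments, 0 of the 222 passed in each of the 3 comparisons, as did 0% of the 789 tested within 2 Mb. An unadjusted p under 0.05 was found in 23 fragments of the stretch for DKO against EV, 8 for S1KO against EV and 20 for DKO against S1KO, against 5.83%, 4.18% and 4.44% of the 789. DESeq2 called 6 of 197 fragments with an adjusted p for DKO against EV, 0 of 222 for S1KO against EV and 8 of 41 for DKO against S1KO, against 2.27%, 0.76% and 14.5% within 2 Mb. Of the 23, 14 lay in the intergenic stretch, 13 of them higher in DKO, and 5 in FBXW11 and 3 in STK10, all lower, against 4.18% of the 789 higher and 1.65% lower. On simulated data with the measured spread this test recovered no changed fragment, so its lack of calls says nothing about single fragments.

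Counted without a model, both DKO libraries stood above both EV libraries in 22 of the 84 intergenic fragments and below them in 13, against 21.5% above and 12.8% below over all fragments within 2 Mb. In FBXW11 the counts were 1 above and 14 below of 43, and in STK10 2 above and 14 below of 33. In UBTD2 they were 3 above and 4 below of 25, and in SH3PXD2B 2 above and 6 below of 23. Within the intergenic stretch, 21 of the 22 fragments above lay before the switch point and 12 of the 13 below lay after it, which the placing of that point from these shares largely fixes. Between S1KO and EV, 36 of the 231 fragments were above and 30 below, against 17.1% and 9.81% of all. Between DKO and S1KO, 30 were above and 88 below, against 15.8% and 20.2%.

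The 10 fragments with the highest mean share all lay in the intergenic stretch, 34.7 to 207 kb above the viewpoint. The leading one, chr5:170892723-170898246, held 21.9 and 16.5 reads per 1000 in DKO, 18.5 and 14.2 in S1KO, and 13.0 and 15.6 in EV. Both DKO libraries lay above both EV libraries and S1KO overlapped each group, and the log2 fold change of DKO from EV did not pass (0.42, adjusted p = 0.903). The fragment chr5:170970838-170983335 held 18.7 and 15.9 in DKO, 14.8 and 17.6 in S1KO, and 5.04 and 11.6 in EV, so that both knockout groups stood above EV. Its neighbour, chr5:170983340-170987680, held 19.2 and 21.2 in DKO, 9.02 and 10.8 in S1KO, and 13.8 and 7.90 in EV, with DKO alone above the rest.

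Other leading fragments did not follow the sum of their segment. The fragment nearest FGF18, chr5:170881642-170892718, held 18.4 and 12.5 in DKO, 5.95 and 8.18 in S1KO, and 14.4 and 11.5 in EV, so that S1KO was lowest. The fragment chr5:170898251-170899386 also had its lowest shares in S1KO, at 7.94 and 5.97, against 12.5 and 15.0 in EV, while DKO held 11.6 and 14.4. The fragment chr5:171055025-171064475, just past the switch point, held 10.1 and 6.15 in DKO, 18.4 and 15.0 in S1KO, and 9.81 and 15.6 in EV. None of these differences passed after adjustment.

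Of these 10 fragments, 3 lay just before the switch point. The fragment chr5:171010438-171016070 held 17.0 and 12.1 in DKO, 6.64 and 12.8 in S1KO, and 4.26 and 5.94 in EV (log2 1.51 for DKO over EV, SE 0.469, adjusted p = 0.741). The fragment chr5:171021955-171042009, the last before it, held 10.0 and 8.75 in DKO, 9.16 and 14.2 in S1KO, and 4.05 and 5.45 in EV. Both knockout groups were above EV in this fragment. Between them, chr5:171017792-171021950 held 11.0 and 14.5 in DKO, 7.96 and 5.41 in S1KO, and 6.98 and 4.19 in EV. The remaining fragment of the 10, chr5:170945119-170952352, overlapped between all groups, at 10.5 and 9.21 in DKO, 9.62 and 6.62 in S1KO, and 9.50 and 5.15 in EV.

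The fragment with the lowest p for DKO against EV lay in FBXW11, at chr5:171388970-171404734. It held 0.863 and 0.280 reads per 1000 in DKO, 1.09 and 1.99 in S1KO, and 3.72 and 9.88 in EV (log2 −3.57, SE 0.874, adjusted p = 0.741). Every knockout library was below both EV libraries. A second FBXW11 fragment, chr5:171414892-171422956, held 1.87 and 1.29 in DKO, 4.22 and 3.92 in S1KO, and 4.50 and 8.40 in EV. Another, chr5:171314430-171322986, led FBXW11 in mean share and held 2.88 and 2.32 in DKO, 8.18 and 6.04 in S1KO, and 7.03 and 4.29 in EV. It was among the 5 lowest p for DKO against S1KO (log2 −1.45, adjusted p = 1).

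Other intergenic fragments with a low p were higher in DKO. The fragment chr5:170988142-170991353 held 4.49 and 7.31 in DKO, 4.07 and 3.69 in S1KO, and 1.33 and 0.611 in EV, and it had the lowest p for S1KO against EV (log2 2.00, SE 0.662, adjusted p = 0.734). The groups were in the order DKO, S1KO, EV. The fragment chr5:171017382-171017787 held 11.3 and 8.75 in DKO, 3.76 and 1.66 in S1KO, and 3.21 and 1.39 in EV, high in DKO alone. So were chr5:171006444-171007880, with 11.5 and 12.3 in DKO, 3.65 and 4.01 in S1KO, and 4.80 and 1.36 in EV, and chr5:170960981-170962712, with 7.55 and 14.2 in DKO, 2.37 and 3.46 in S1KO, and 4.17 and 4.06 in EV. In STK10, chr5:171615545-171618357 was higher in both knockout groups, at 1.96 and 3.18 in DKO, 2.43 and 4.05 in S1KO, and 1.19 and 0.367 in EV, against the fall of the gene as a whole in DKO.

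The authors' deposited q-values, given for each library, placed nearly all called interactions of the stretch before the genes. At a q under 0.05 the intergenic stretch held 4 and 13 called fragments in DKO, 8 and 7 in S1KO, and 5 and 0 in EV. All fragments within 2 Mb held 8 and 19 calls in DKO (0.872% and 2.07% of 917), 17 and 15 in S1KO (1.85% and 1.64%), and 11 and 5 in EV (1.2% and 0.545%). Elsewhere in the stretch the calls were 1 in FBXW11 and 1 in the gap after it, both in S1KO replicate 1. The FBXW11 call was the leading fragment of that gene, chr5:171314430-171322986, and STK10, UBTD2 and SH3PXD2B had 0 calls in each of the 6 libraries. In all, 21 fragments were called in at least 1 library, and 2 of them, chr5:170892723-170898246 and chr5:170983340-170987680, in every library but EV replicate 2. How far the number called depends on the depth of each library was not tested, so no difference between groups was read from it.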

How the data were processed

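The enzymes, per the labels' protocols, were HindIII first and DpnII second. Titles gave the groups DKO, S1KO and EV (2 libraries each, 6 in all). The aligner Bowtie2 2.2.5 and the build hg19 are named per the submitters' processing notes, and the caller of interactions is not given in the sources used here. Per the file headers, the deposited files hold a read count per HindIII fragment, a p-value and a q-value, used as the authors deposited them. A deposited column headed RPMs was treated as a score and not used, since its values are not proportional to the counts.

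A fragment absent from a library's list was given 0 reads. Levels are reads per 1000 reads within 2 Mb of the viewpoint midpoint, with fragments within 10 kb left out. No hg19 annotation was used: gene limits were set by hand in steps of 10 kb from general knowledge of hg19. They differed by at most 7.82 kb, at the lower limit of SH3PXD2B, from the distances in the RefSeq annotation of GRCh38.p14. That is more than rounding allows, so fragments near this limit may be in the wrong segment. Without fragments near a gene limit the log2 difference of DKO from EV in SH3PXD2B was −0.76.

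Segments, 50-kb windows and fragments were tested with the quasi-likelihood test of edgeR 4.0.16 (R 4.3.3), fitting the 6 libraries together. Features needed 10 reads in 2 libraries, the library size was the reads within 2 Mb, and Benjamini-Hochberg values under 0.05 passed. On simulated data with changes of 4-fold it recovered most changed segments and windows, called a few unchanged windows and recovered no changed fragment. Those changes were larger than any segment or window difference given here, so the simulation does not show that differences of the reported size are detected. DESeq2 1.42.0 was an alternative. Shares and ratios had exact two-sided permutation tests, whose smallest p is 0.333 for 2 against 2 and 0.0667 for 2 against 4. Python 3.11.15, numpy 2.4.6, pandas 2.3.3, scipy 1.17.1 and matplotlib 3.10.9 were used. The text names all segments, the windows past the threshold and those beside the switch point, the 10 fragments with the highest mean share and the 5 lowest p for each comparison. The stretch, the segments and these rules were chosen with earlier results of these data known. The deviations of replicate 1 in one group correlated at −0.223, −0.284 and 0.0646 with those in another over windows, so replicate numbers were not taken as pairs. Replicates differed by more than counting error. The alternatives changed the scaling, the filter, the window size or the zone left out, or used capped reads, counts of fragments with a read, the replicate number as a block, and leaving out each library; for the median read position, the slope, the mirrored ratio and the STK10 ratio they were added after seeing the data. Sequenced fragments carry no molecular identifiers, so reads are not independent molecules.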

Additional observations from a re-analysis of the deposited data

How the results depend on the processing

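The loss of the intergenic gain with capped reads limits these results. Most reversals came from capping reads or counting fragments with a read, and the cause was not tested. The count of fragments was near its ceiling in the intergenic stretch, so it cannot show whether reads shifted. There, each library's 5 leading fragments held 25.1% and 23.6% of reads in DKO, 21.8% and 23.0% in S1KO, and 22.3% and 23.4% in EV. Without the leading fragment the DKO to EV difference was still 0.32. On the log2 scale, with capped reads, the intergenic share difference was −0.17 (fit −0.165) for DKO against EV, −0.011 (fit −0.015) for S1KO against EV and −0.16 (fit −0.15) for DKO against S1KO. For S1KO against EV, STK10 was then 0.0102 by share and 0.0104 by fit, UBTD2 −0.00601 by fit, and the intergenic ratio to STK10 −0.0208 and to UBTD2 −0.0161. The ratio to SH3PXD2B for DKO against S1KO was −0.0041. The capped windows from 50 and 150 kb were −0.0592 and −0.104 for DKO against EV, those from 150 and 200 kb −0.00867 and −0.0571 for S1KO against EV, and that from 150 kb −0.0958 for DKO against S1KO. By fragments with a read, for DKO against EV, the intergenic share was −0.32, UBTD2 0.0838, the intergenic ratio −0.0696 to FBXW11, −0.41 to UBTD2 and −0.18 to SH3PXD2B, the median position 15.3 kb, the slope 0.0514 and the mirrored log2 ratio of UBTD2 0.42. Between S1KO and EV these were −0.22 for the intergenic share, −0.0999, −0.0839, −0.48 and −0.0875 for the ratios to FBXW11, STK10, UBTD2 and SH3PXD2B, 23.5 kb for the median and 0.0678 for the slope. Between DKO and S1KO they were −0.11 for the intergenic share and −0.0939 for the ratio to SH3PXD2B.

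The remaining reversals were of small S1KO to EV differences that had not passed, but for the window from 200 kb for DKO against EV (0.13 with chromosome 5 reads). With chromosome 5 reads FBXW11 was 0.13 (fit 0.096), STK10 0.24 (fit 0.20) and SH3PXD2B 0.00185 by fit. STK10 was 0.092 with no fragment left out and 0.0105 without its leading fragment, and UBTD2 was −6.85e-05 without fragments within 20 kb. Leaving out each library gave −0.13 to 0.0518 for STK10 (fit −0.13 to 0.0518), −0.10 to 0.20 for UBTD2 (fit −0.098 to 0.21), −0.59 to 0.0219 for SH3PXD2B (fit −0.59 to 0.0225), −0.0829 to 0.24 for the ratio to UBTD2 and −0.0702 to 0.40 for the window from 200 kb.

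Segments past the threshold, 3 for DKO against EV and 2 for DKO against S1KO, numbered 0 and 0 with TMM, 1 and 0 with chromosome 5 reads, and 0 for DKO against S1KO with capped reads. Between S1KO and EV 1 passed with the 4 libraries alone. Windows past it, 11 for DKO against EV and 9 for DKO against S1KO, numbered 7 and 1 with TMM, 3 and 2 with chromosome 5 reads, and 3 and 1 with capped reads, of 20 each. With 25-kb windows 5 and 0 of 40 passed, and with 100-kb windows 7 and 8 of 10. DESeq2 called 5 for DKO against S1KO. Leaving out each library gave 4 to 10 for DKO against EV and 0 to 5 for DKO against S1KO. Fragments past it numbered 6 for DKO against EV and 8 for DKO against S1KO with DESeq2, and 1 for DKO against EV with no filter on low counts. The replicate number as a block, which pairs samples only by number, left 3 and 2 segments, and 10 and 6 windows.

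The switch point for DKO against EV was 284 kb with chromosome 5 reads and 321 kb by fragments with a read. For DKO against S1KO it was 381 and 205 kb with 25-kb and 100-kb running windows, 167 kb with capped reads, 300.2 kb by fragments with a read, 167 kb by the cumulative difference, and 183 to 190 kb leaving out each library. Of the results with no value by group means, the S1KO to EV switch point lay between 282 and 785 kb in the settings that gave one.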

Other observations

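One fragment of the stretch, chr5:171755682-171757290 in the gap between UBTD2 and SH3PXD2B (hg19), had 0 and 0 reads in DKO, 62 and 14 in S1KO, and 26 and 3 in EV. It was singled out after its values were seen, as the one fragment with no read in either DKO library and reads in the other 4. The log2 fold change from EV did not pass (adjusted p = 0.774). Within the intergenic stretch the leading fragment held 5.78% and 5.89% of the segment's reads in DKO, 5.71% and 5.47% in S1KO, and 4.91% and 5.27% in EV, so that no single fragment carried the segment. In UBTD2 the leading fragment held 21.1% and 14.8% in DKO, 19.1% and 18.1% in S1KO, and 13.1% and 25.9% in EV. Per 10 kb of listed fragments, SH3PXD2B held the fewest reads of the 4 genes, at 0.998 and 1.12 reads per 1000 in DKO, 1.44 and 1.36 in S1KO, and 1.38 and 2.11 in EV. FBXW11 held 3.32 and 3.58 in DKO, 6.55 and 5.86 in S1KO, and 7.19 and 6.66 in EV.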
